A study of Homo sapiens with 4 samples.

Results

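The 42 genes described here encode the proteins that copy DNA in S phase, from the loaders of the replicative helicase to the enzymes that make nucleotides. They were taken as a list of gene symbols, chosen with earlier results of these data known. All 42 had a row among the 27356 genes of the deposited tables. In HaCaT keratinocytes given the cytokine mix M5, 36 of the 42 were lower than in cells given PBS, 0 were higher, and 6 did not pass the test. Of all 10809 genes tested, 27.1% were lower and 28.8% higher. The falls were moderate, with a median log2 fold change of -0.57. With the main scaling 1 member, the thymidylate synthase gene TYMS, passed 2-fold. It had only 59 to 125 counts per library, and its change is uncertain because it shares exonic bases with another gene. ORC1 and GINS2 joined TYMS with library totals, and these and MCM6 with scaling to TPM (3 and 4 members).

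RNA sequencing of polyadenylated RNA was done on HaCaT, an immortalised human keratinocyte line, in 2 control libraries, whose cells received phosphate-buffered saline (PBS), and 2 libraries of M5-treated cells. M5 combines IL-1α, IL-17, IL-22, TNF-α and oncostatin M at 10 μg/L each, and it was added for 72 h from a plating density of 50%. The treatment tag of the M5 libraries names 25 μM DAC instead, and the groups here follow the titles and protocols, which name M5. Whether replicates were separate cultures is not stated in the labels. The p-values therefore measure only how far these particular libraries vary, and that variation may be technical. According to the series description, M5 raises genes tied to proliferation, and the replication genes bear on that question.

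Total counts per library were 15858644 and 16051974 for PBS, and 18992988 and 19749612 for M5. All 10 keratinocyte marker genes examined had a mean of at least 1 FPKM (counts divided by library total and gene length), and their summed FPKM was 4244 and 4184 in PBS, against 6122 and 5771 in M5. Its members did not all move alike: KRT5 was at 759.9 and 752.6 FPKM in PBS and 363.0 and 336.0 in M5, while KRT6A was at 689.7 and 663.4 in PBS and 1466 and 1490 in M5. Of the immune markers, CD14 made up most of the sum, which was 2.34 and 1.55 FPKM in PBS and 4.66 and 5.12 in M5. Summed FPKM in any library stayed at or under 0.667 for fibroblast markers, 2.40 for melanocyte markers and 0.623 for endothelial markers. The part of these marker differences in the results below was not tested. In bulk RNA, fewer cells in S phase and less replication mRNA per cell cannot be told apart.

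Replication is prepared in G1, when the origin recognition complex, CDC6 and CDT1 load the ring of MCM2 to MCM7 onto origins. At the onset of S phase, CDC45 and the GINS complex join the ring to form the active helicase, polymerase alpha and primase start each strand, and polymerases delta and epsilon extend it on the PCNA clamp. Many of these genes are transcribed in late G1 by E2F factors, which the retinoblastoma family restrains until cyclin-dependent kinases phosphorylate it. In skin, such transcription is a feature of the proliferating basal layer.

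E2F letters near the transcription start were looked for because E2F factors are textbook regulators of these genes. RefSeq promoter windows on GRCh38.p14, from 250 bases before to 50 bases after a start, were found for 36 of the 42 members, as 46 windows. The letters searched were TTTCCCGC, TTTCGCGC, TTTGCCGC and TTTGGCGC on both strands, where overlapping matches were each counted. They occurred in 20 of the 46 windows (43.5%), in 3.31% of all 35116 windows of the table, and in 5.09% of the 11722 windows of genes tested here. CCAAT on either strand occurred in 29 windows (63.0%), against 34.6% of all windows and 35.1% of those of tested genes. TTTGAA or TTCGAA on either strand occurred in 2 windows (4.35%), against 16.4% of all windows and 11.6% of those of tested genes. In 56 windows of the other replication genes described below, E2F letters occurred in 19.6%, CCAAT in 44.6% and TTTGAA or TTCGAA in 10.7%. A match is an exact run of letters and says nothing of binding in these cells. Runs that differ from these letters by a base were not counted, and the ORC1 window holds such a run. The window of ORC1, with a larger fall than MCM6 or GINS2, held 0 E2F matches, and so did those of ORC6, RRM2 and SLBP, which were not called. The stretches below were picked among members whose windows hold E2F letters, marked in capitals, to show that they occur in members that fell (MCM6, GINS2 and TYMS) and in members that were not called (GINS3 and E2F1). Each is written 5′ to 3′ on the strand of its gene, and in MCM6 each run of capitals is a pair of matches that overlap by 4 bases.
MCM6 (chr2:135876482-135876655, minus strand): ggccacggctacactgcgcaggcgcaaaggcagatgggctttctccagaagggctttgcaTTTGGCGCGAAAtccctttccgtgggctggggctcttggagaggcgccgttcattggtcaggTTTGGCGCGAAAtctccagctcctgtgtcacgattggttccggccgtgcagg
GINS2 (chr16:85688938-85689045, minus strand): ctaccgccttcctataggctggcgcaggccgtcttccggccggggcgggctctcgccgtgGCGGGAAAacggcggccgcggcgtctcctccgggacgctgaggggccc
TYMS (chr18:657554-657661, plus strand): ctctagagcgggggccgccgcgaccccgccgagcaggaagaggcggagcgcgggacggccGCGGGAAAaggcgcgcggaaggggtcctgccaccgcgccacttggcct
GINS3 (chr16:58392406-58392500, plus strand): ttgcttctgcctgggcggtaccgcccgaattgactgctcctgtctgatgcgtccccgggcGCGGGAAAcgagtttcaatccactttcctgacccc
E2F1 (chr20:33686358-33686478, minus strand): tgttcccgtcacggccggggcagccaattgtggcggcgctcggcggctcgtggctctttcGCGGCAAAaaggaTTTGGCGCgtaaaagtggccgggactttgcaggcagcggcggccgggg

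The whole set was read against all genes first. Differences are log2 fold changes of M5 against PBS from edgeR's quasi-likelihood test on the 10809 genes whose FPKM averaged 1 or more, and a gene is called at a Benjamini-Hochberg adjusted p under 0.05. All 42 members were tested. Of all tested genes, 27.1% were called lower and 28.8% higher, while 36 of 42 members (85.7%) were called lower. The median log2 fold change was -0.57 for the members and -0.01 for all tested genes. Below the 10th percentile of all genes, at -0.60, lay 17 members, and 34 members lay below the lower quartile of -0.29. No member was called higher by edgeR, none had a positive change at an unadjusted p under 0.05 (0 members), and DESeq2 and limma also gave 0 by both measures. As CPM, counts divided by a library size that TMM adjusts for composition, both M5 libraries lay below both PBS libraries for 40 members, against 39.4% of all tested genes. GINS3 was the 1 member with both M5 libraries above, and RRM2 overlapped.

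**Figure D1:**
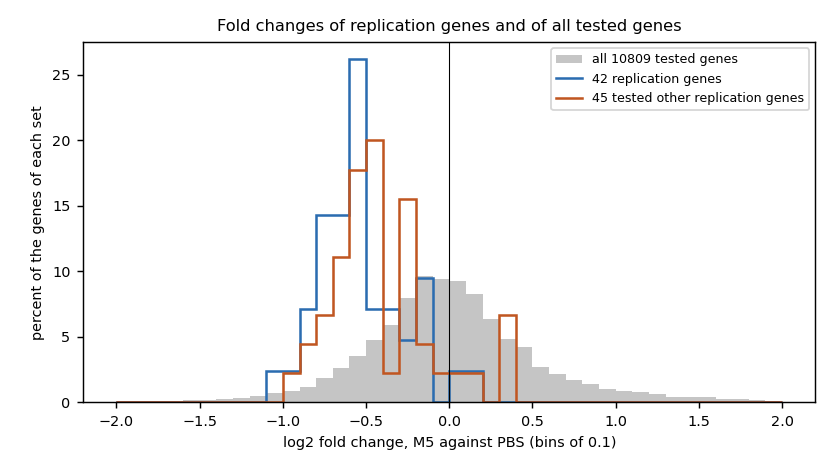
Histograms of the log2 fold change of M5 against PBS (x axis, bins of 0.1) as a percent of the genes of each set (y axis), for all 10809 tested genes, the 42 replication genes and 45 tested other replication genes. The 42 genes pile up around their median of -0.57, left of the median of all genes at -0.01, and 3.07% of all tested genes and SHMT1 fall outside the plotted range.

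The scaling of the libraries moved all genes together. With library totals alone the median of all genes was -0.16 and 41.3% were called lower and 20.4% higher, and with scaling to TPM, which divides length-corrected counts by their own sum, the median was -0.20 with 43.8% lower and 18.8% higher. Members called lower then numbered 40 and 41, with medians of -0.72 and -0.75, and the added calls were ORC6, RPA2, SLBP and E2F1 under both and RRM2 with TPM. Those 4 genes were also called lower by limma and with a mean of at least 5 FPKM. The sign was negative under all 3 scalings for 40 members, while RRM2 and GINS3 were slightly above 0 with TMM and below it with the others. The members took up 0.627% and 0.632% of the counts of the PBS libraries and 0.390% and 0.399% of those of the M5 libraries. Their summed FPKM was 1607 and 1628 in PBS and 997 and 1042 in M5, so the M5 mean was 63.0% of the PBS mean on a scale with no TMM factor.

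**Figure D2:**
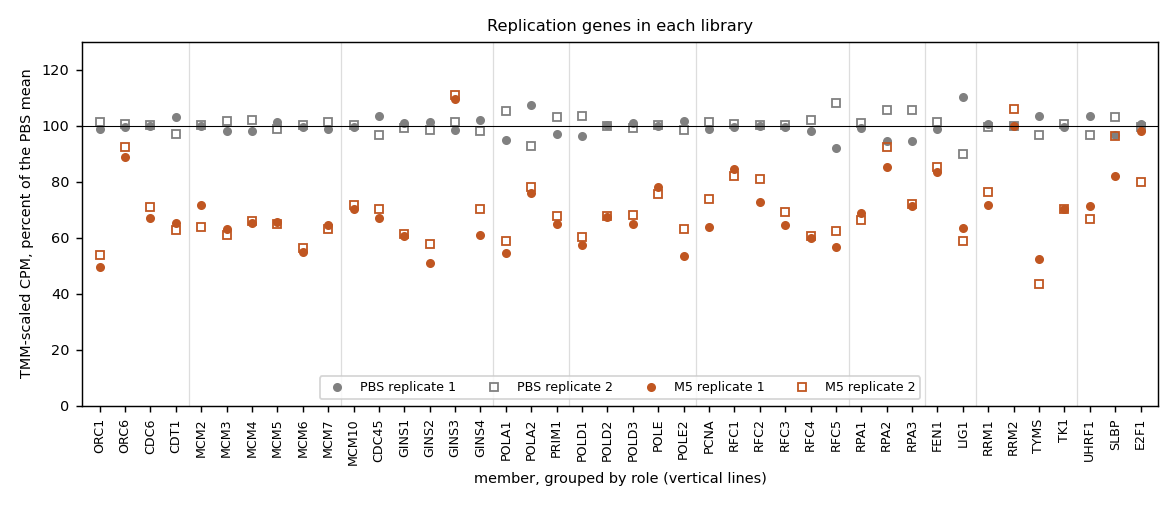
TMM-scaled CPM of each replication gene in each library, as a percent of its PBS mean (y axis), with genes grouped by role along the x axis. Circles are replicate 1 and squares replicate 2, and the M5 libraries lie below both PBS libraries for 40 genes, above them for GINS3 and overlapping for RRM2.

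Among the genes of origin recognition and licensing, 3 of 4 fell. This count and the role counts below stand beside 27.1% of all tested genes called lower. ORC1, the subunit of the origin recognition complex that varies most with the cell cycle (chromosome 1, 52372829 to 52404459), measured 55.8 and 57.3 CPM in PBS and 27.9 and 30.4 CPM in M5. The M5 libraries were close to each other and far below PBS, a log2 fold change of -0.95 (SE 0.084, adjusted p = 1.51e-08) or 1.94-fold. CDC6, the ATPase that completes the loading complex, fell by 0.54 on the log2 scale, and CDT1, which brings the MCM ring to it, fell by 0.65. ORC6, the smallest subunit, measured 58.7 and 59.4 CPM in PBS and 52.5 and 54.5 CPM in M5. Its libraries did not overlap, but both M5 libraries also lay below both PBS libraries for 39.4% of all tested genes. The ORC6 log2 fold change of -0.14 (95% interval -0.29 to 0.01, adjusted p = 0.0983) did not pass the test. The ratio of ORC6 to ORC1 FPKM was 0.762 and 0.75 in PBS and 1.36 and 1.3 in M5, so ORC6 mRNA was the lower of the pair per length in PBS and the higher in M5.

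All 6 genes of the MCM2-7 ring fell, within a narrow range of log2 fold changes from -0.85 to -0.56. MCM6 (chromosome 2, 135839626 to 135876426) fell most, from 167 and 168.3 CPM in PBS to 91.9 and 94.4 CPM in M5. This was 1.80-fold, at -0.85 on the log2 scale (SE 0.058, adjusted p = 3.81e-10). MCM2 fell least, with 222.8 and 222.9 CPM in PBS and 159.6 and 142.4 CPM in M5 (-0.56, SE 0.062, adjusted p = 2.92e-07), and the M5 libraries differed more from each other than the PBS libraries did. Between them lay MCM3 at -0.69, MCM7 at -0.65, MCM5 at -0.62 and MCM4 at -0.61. The ring holds 1 copy of each subunit, and the share of each gene in the summed FPKM of the 6 shows the balance of their mRNA. MCM7 made up 29.8% in both PBS libraries and 29.9% and 30.1% in M5. MCM6 went from 12.3% and 12.2% in PBS to 10.5% and 11.0% in M5. The sum of the 6 in M5 was 57.0% of its PBS mean.

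Of the 6 genes for helicase activation, 5 fell. GINS2, a subunit of the GINS tetramer (chromosome 16, 85676198 to 85690073), fell most, from 67.1 and 65.2 CPM in PBS to 33.6 and 38.2 CPM in M5. Its change was -0.88 (SE 0.081, adjusted p = 2.76e-08), or 1.84-fold. GINS1 fell by 0.72, GINS4 by 0.60, CDC45, the partner of GINS in the active helicase, by 0.54, and MCM10, which triggers its activation, by 0.50. The fourth GINS subunit, GINS3 (chromosome 16, 58295080 to 58406144), measured 20.4 and 21.1 CPM in PBS and 22.8 and 23.0 CPM in M5. Its change of 0.14 did not pass the test (95% interval -0.08 to 0.37, adjusted p = 0.278). The interval of GINS3 did not reach the values of the other 3 subunits, though the differences between subunits were not tested. GINS3 FPKM was 0.192 and 0.203 of GINS2 FPKM in PBS and 0.427 and 0.38 in M5. Its promoter stretch, like that of GINS2, holds the letters GCGGGAAA, TTTCCCGC read on the other strand.

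**Figure D3:**
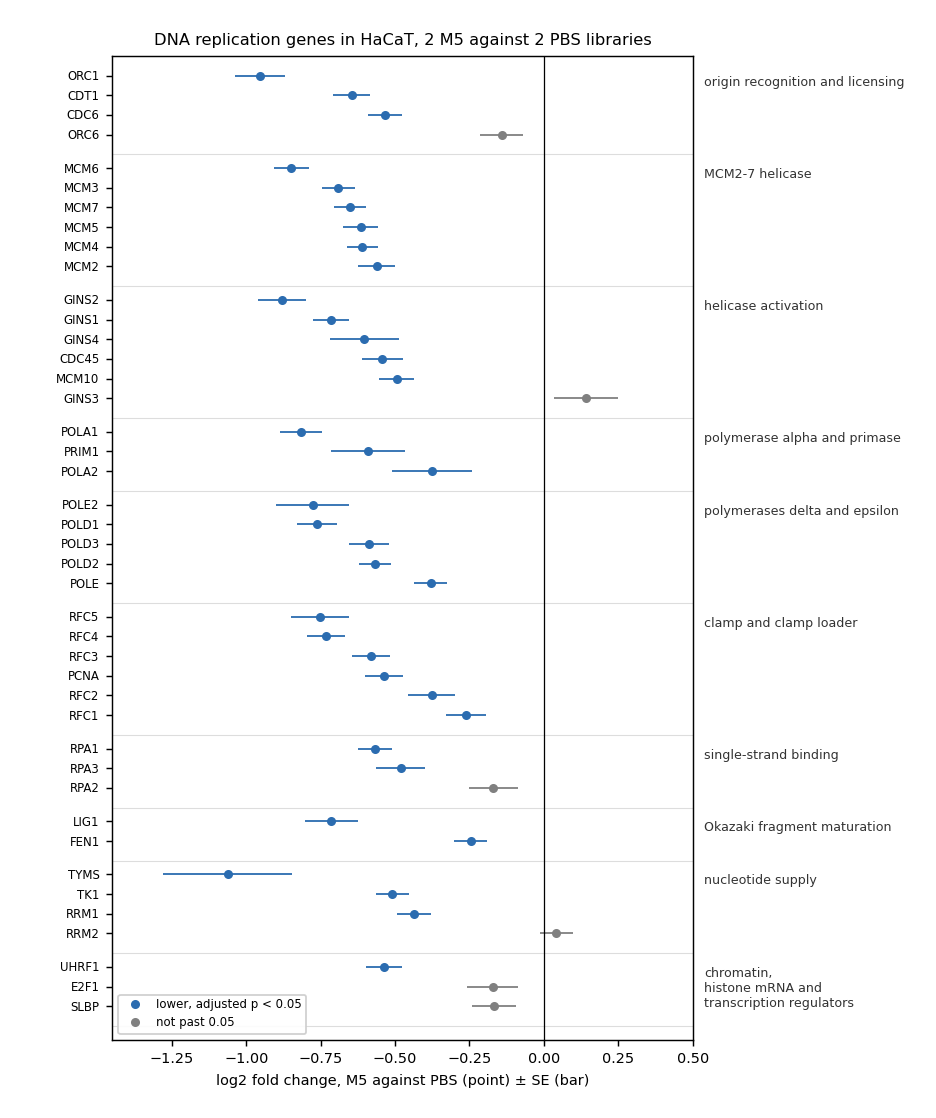
Log2 fold change of M5 against PBS (x axis, point) with its SE (bar) for each of the 42 replication genes (y axis), grouped by role, from edgeR on 2 and 2 libraries. The 36 genes called lower run from TYMS at -1.06 to FEN1 at -0.25, and ORC6, GINS3, RPA2, RRM2, SLBP and E2F1 did not pass an adjusted p of 0.05.

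All 3 genes of the polymerase alpha and primase complex fell. POLA1, the catalytic subunit of the polymerase that extends RNA primers, measured 86.2 and 95.4 CPM in PBS and 49.6 and 53.5 CPM in M5 (-0.82, SE 0.071, adjusted p = 1.09e-08). PRIM1, the primase subunit that makes the primers, fell by 0.59. POLA2, the regulatory subunit, measured 19.2 and 16.6 CPM in PBS and 13.6 and 13.99 CPM in M5. Its change of -0.38 (SE 0.134, adjusted p = 0.0227) lost its call with DESeq2 or limma (adjusted p from 0.0582 to 0.0739). POLA2 also lost its call with no filter, at an adjusted p under 0.01, without PBS replicate 1 (-0.27) and without M5 replicate 1 (-0.35). POLA2 also shared 35.1% of its exonic bases with AP000944.2 on the same strand, and the effect of this on its count was not tested.

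All 5 polymerase delta and epsilon genes fell. POLE2, the second subunit of the leading strand polymerase epsilon, fell most, from 24.6 and 23.8 CPM in PBS to 13.0 and 15.3 CPM in M5 (-0.78, SE 0.123, adjusted p = 2.81e-05). POLD1, the catalytic subunit of the lagging strand polymerase delta, fell by 0.76, its subunits POLD3 by 0.59 and POLD2 by 0.57. POLE, the catalytic subunit of polymerase epsilon, fell least, from 197.7 and 198.6 CPM to 154.9 and 149.5 CPM (-0.38, SE 0.056, adjusted p = 1.25e-05). The ratio of POLE to POLE2 FPKM was 1.91 and 1.98 in PBS and 2.84 and 2.33 in M5.

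The 6 genes of the sliding clamp and its loader all fell. PCNA, the clamp that tethers the polymerases (chromosome 20, 5114953 to 5126626), measured 377.3 and 386.6 CPM in PBS and 243.6 and 282.3 CPM in M5 (-0.54, SE 0.064, adjusted p = 8.37e-07). Both M5 values lay below PBS, with a wider gap between the M5 libraries than between the PBS libraries. RFC5, a small subunit of the loader, fell most, from 43.9 and 51.6 CPM to 27.0 and 29.7 CPM (-0.75, SE 0.097, adjusted p = 2.53e-06). The other small subunits fell by 0.73 (RFC4), 0.58 (RFC3) and 0.38 (RFC2). RFC1, the large subunit, fell least, from 68.0 and 68.7 CPM to 57.9 and 56.1 CPM (-0.26, SE 0.067, adjusted p = 0.00266). RFC1 FPKM was 0.367 and 0.357 of RFC4 FPKM in PBS and 0.511 and 0.492 in M5.

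In the single-strand binding complex RPA, 2 of 3 subunits fell. RPA1, the large DNA-binding subunit, went from 251.3 and 255.8 CPM in PBS to 174.5 and 167.7 CPM in M5 (-0.57, SE 0.056, adjusted p = 6.52e-08), and RPA3 fell by 0.48. RPA2, the subunit phosphorylated under replication stress, measured 48.1 and 53.8 CPM in PBS and 43.5 and 47.1 CPM in M5, with no overlap but a narrow gap. Its change of -0.17 did not pass the test (95% interval -0.34 to 0.005, adjusted p = 0.0923). Without M5 replicate 2 the RPA2 change was -0.23, and over all alternatives it ran from -0.35 to -0.09. Both genes for joining Okazaki fragments fell. LIG1, the ligase that seals the nicks, went from 76.7 and 62.5 CPM to 44.1 and 40.8 CPM (-0.71, SE 0.089, adjusted p = 1.58e-06). FEN1, the nuclease that trims the flaps, went from 180.8 and 185.6 CPM to 152.7 and 156.1 CPM (-0.25, SE 0.056, adjusted p = 0.00108), the smallest change among the members called.

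Of the 4 genes of nucleotide supply, 3 fell. TYMS, the enzyme that makes thymidylate (chromosome 18, 657604 to 673578), had 125 and 118 counts in PBS and 68 and 59 in M5, or 7.48 and 6.98 CPM against 3.78 and 3.14 CPM. This was a log2 fold change of -1.06 (SE 0.217, adjusted p = 3.85e-04), 2.09-fold, with the largest SE of all members. The kit does not mark strand, and TYMS shared 39.1% of its exonic bases with ENOSF1 on the other strand, which had 456 and 491 counts in PBS and 326 and 327 in M5. How reads of the shared bases were assigned was not tested, so the level and change of TYMS are uncertain. TK1, the salvage thymidine kinase, fell by 0.51.

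The subunits of ribonucleotide reductase, which makes deoxynucleotides from ribonucleotides, are RRM1 and RRM2. RRM1, the large subunit, fell by 0.44 (SE 0.057, adjusted p = 2.68e-06). RRM2, the small subunit that is usually restricted to S phase (chromosome 2, 10120698 to 10131419), measured 238.4 and 238.3 CPM in PBS and 238.4 and 252.5 CPM in M5. Its libraries overlapped and its change of 0.04 did not pass the test (95% interval -0.08 to 0.16, adjusted p = 0.546). With TPM scaling its change was -0.14 (adjusted p = 0.0368). The interval of RRM2 did not reach the value of RRM1, though the difference between them was not tested. RRM2 FPKM was 0.405 and 0.41 of RRM1 FPKM in PBS and 0.57 and 0.565 in M5. RRM2 shared 20.2% of its exonic bases with AC007240.1 on the same strand, and the effect of this was not tested. The RRM2P2 pseudogene had 0 to 3 counts in each library.

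Of the 3 regulators in the list, UHRF1 fell and SLBP and E2F1 were not called, a share lower of 33.3%, near the 27.1% of all tested genes. UHRF1, which guides maintenance methylation to new DNA, went from 206.6 and 193.3 CPM in PBS to 142.3 and 133.0 CPM in M5 (-0.54, SE 0.060, adjusted p = 3.92e-07). SLBP, which binds the stem loop of histone mRNA, measured 81.5 and 87.0 CPM in PBS and 69.1 and 81.0 CPM in M5, and M5 replicate 2 came within a narrow margin of PBS replicate 1 (-0.17, 95% interval -0.32 to -0.01, adjusted p = 0.0658). With the replicate number as a block the adjusted p of SLBP was 0.0319. Without M5 replicate 2 the SLBP change was -0.29, and over all alternatives it ran from -0.35 to -0.05. E2F1, an activating E2F factor (chromosome 20, 33675683 to 33686404), measured 60.8 and 60.1 CPM in PBS and 59.2 and 48.2 CPM in M5. Its 2 M5 libraries stood apart, and its change of -0.17 did not pass the test (95% interval -0.35 to 0.01, adjusted p = 0.0971). Without M5 replicate 1 the E2F1 change was -0.32, and without M5 replicate 2 it was -0.03. Over all alternatives the E2F1 change ran from -0.35 to -0.03, so its size depends on which M5 library is kept.

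Per length, in the deposited FPKM, the members ranged widely in level. PCNA was the most abundant, at 286.8 ± 4.71 FPKM (SD, n = 2) in PBS and 177.9 ± 19.2 FPKM in M5. It was followed by TK1, with a mean of 127.8 FPKM in PBS and 80.9 in M5, and MCM7, with 104.1 and 59.7. POLA2 had the lowest deposited FPKM, with a mean of 1.57 in PBS and 1.09 in M5, next to TYMS with 3.15 and 1.36 and GINS3 with 4.28 and 4.25. The gene lengths behind the deposited FPKM differ by more than 10% from the exonic lengths in GENCODE 29 for 12 members, and POLA2 has 12006 bp in the files against 5726 exonic bp. With exonic lengths, POLA2 would be at 3.30 and 2.28 FPKM and TYMS, at 3.08 and 1.33, would be the lowest, so the order of levels, the ratios between genes and the weights in summed FPKM depend on the annotation. The relative change of a gene or a ratio between PBS and M5 does not depend on these lengths. Besides TYMS, POLA2 and RRM2, the members sharing most of their exonic bases with other genes were MCM2 (23.6%), GINS4 (23.6%) and PRIM1 (21.6%). Whether the counts of genes that share exonic bases, such as TYMS, depend on the annotation was not tested. By role, summed FPKM in M5 ran from 57.0% of the PBS mean for the MCM ring and 57.1% for polymerase alpha and primase to 73.5% for the regulators and 74.5% for Okazaki fragment maturation.

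**Figure D4:**
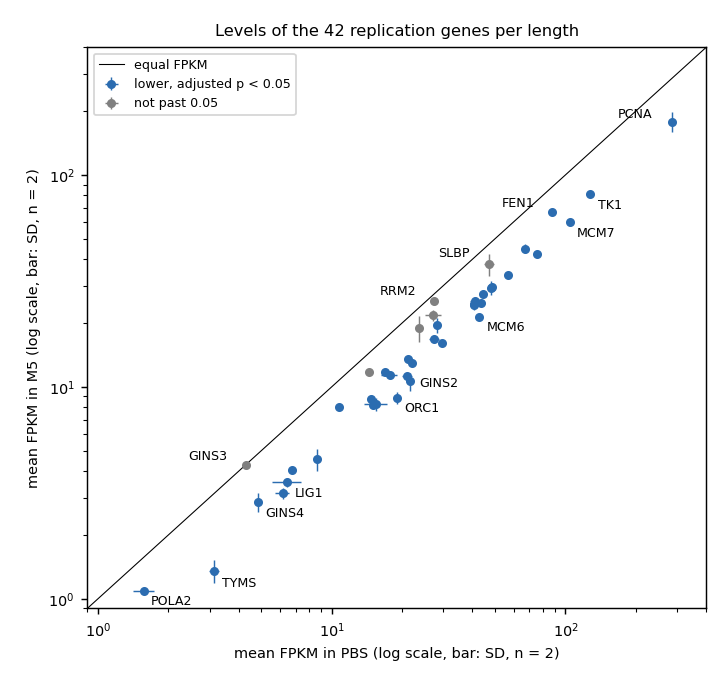
Mean FPKM of each replication gene in PBS (x axis) and in M5 (y axis), both on log scales, with SD bars over 2 libraries and a line of equal FPKM. In these deposited values PCNA is the highest gene at 286.8 FPKM in PBS and POLA2 the lowest at 1.57, and GINS3, at 4.28 and 4.25 FPKM, lies nearest the line.

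The 49 other replication genes listed are not among the 42, and they too were chosen with earlier results of these data known. Of the 45 tested, 38 were called lower (84.4%, against 27.1% of all tested genes) and 3 higher (6.7%, against 28.8%), with a median log2 fold change of -0.46. All 8 genes of origin firing fell, led by CDC7, the kinase that phosphorylates the MCM ring, from 29.7 and 27.7 CPM in PBS to 15.4 and 14.3 CPM in M5 (-0.95, SE 0.112, adjusted p = 7.23e-07). All 7 tested genes of chromatin assembly and maintenance methylation fell, led by the histone chaperone NASP at -0.83, with the methyltransferase DNMT1 at -0.41. Of 15 fork and polymerase genes, 12 fell and 1 rose, from the fork protein WDHD1 at -0.79 to the polymerase epsilon subunit POLE4 at 0.34. Of 7 origin and licensing genes, 5 fell, led by the CDT1 inhibitor GMNN at -0.60, and 1 rose, the origin recognition partner LRWD1 at 0.31.

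Of 8 further genes of nucleotide supply, 6 were called lower and 1 higher, against 27.1% and 28.8% of all tested genes. DUT, which clears dUTP, fell by 0.74. RRM2B, the ribonucleotide reductase subunit induced by p53, rose by 0.40 (SE 0.102, adjusted p = 0.00274). SHMT1, a serine hydroxymethyltransferase, had the most negative change, -2.49, which rests on PBS replicate 1: it had 404 counts in that library and 8 in PBS replicate 2, against 64 and 16 in M5, and without that library the change was 2.19. POLE4 lost its call without PBS replicate 2 (0.20, adjusted p = 0.162). The calls of LRWD1 and POLE4 were lost with library totals, and all 3 rises were lost with TPM scaling and with limma. POLD4, RNASEH2A, CHTF8 and ASF1B did not reach the FPKM minimum.

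Of 39 listed genes of cell cycle control, 36 were tested. They comprise the E2F and RB family, G1 and S cyclins, kinases and CDK inhibitors, and S phase checkpoint genes. Of the 36, 19 were lower (52.8%, against 27.1% of all tested genes) and 8 higher (22.2%, against 28.8%), and the median was -0.22. The share lower differed by list. It was 88.9% for checkpoint genes, 43.8% for cyclins, kinases and inhibitors (7 of 16, with 5 higher) and 36.4% for the E2F and RB family. CDKN1A, the cyclin-dependent kinase inhibitor p21, measured 40.4 and 38.8 CPM in PBS and 382.6 and 361.0 CPM in M5, a log2 fold change of 3.23 (SE 0.066, adjusted p = 2.6e-18). CCNE1, the cyclin E1 gene that E2F factors activate, also rose, from 13.6 and 12.2 CPM to 24.7 and 24.4 CPM (0.93, SE 0.122, adjusted p = 3.01e-06). CCNE2 was not called (-0.13, adjusted p = 0.51). Among other inhibitors, CDKN2D rose by 1.43 and CDKN2C fell by 2.47, CDKN2B by 1.31 and CDKN2A by 1.00. CCNA2, the S phase cyclin A2, fell by 0.74. In the S phase checkpoint, 8 of 9 tested genes were lower, led by the kinase CHEK2 at -0.63, and HUS1 was not called at 0.24 (adjusted p = 0.0566). HUS1 was called higher without M5 replicate 1 (0.36, adjusted p = 0.00442) and without PBS replicate 2 (0.31, adjusted p = 0.0366).

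In the E2F and RB family, 4 of 11 tested genes were lower (36.4%) and 3 higher (27.3%), shares near the 27.1% and 28.8% of all tested genes, so the counts are no result about the family. The repressor E2F8 fell by 0.57 and the pocket protein RBL2 by 0.51, while the activator E2F3 rose by 0.33, RB1 by 0.34 and E2F5 by 0.45 (adjusted p = 0.0494). These 3 rises lost their calls with TPM scaling, with adjusted p of 0.0738, 0.0567 and 0.22. E2F5 also lost its call with DESeq2 (adjusted p = 0.12) and when any of 3 libraries was left out: PBS replicate 1 (adjusted p = 0.354), M5 replicate 1 (0.0614) or M5 replicate 2 (0.126). E2F7 (-0.15, adjusted p = 0.0614), E2F6 (-0.12, adjusted p = 0.474) and E2F4 (0.00, adjusted p = 0.971) were not called, and E2F2 did not reach the FPKM minimum.

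**Figure D5:**
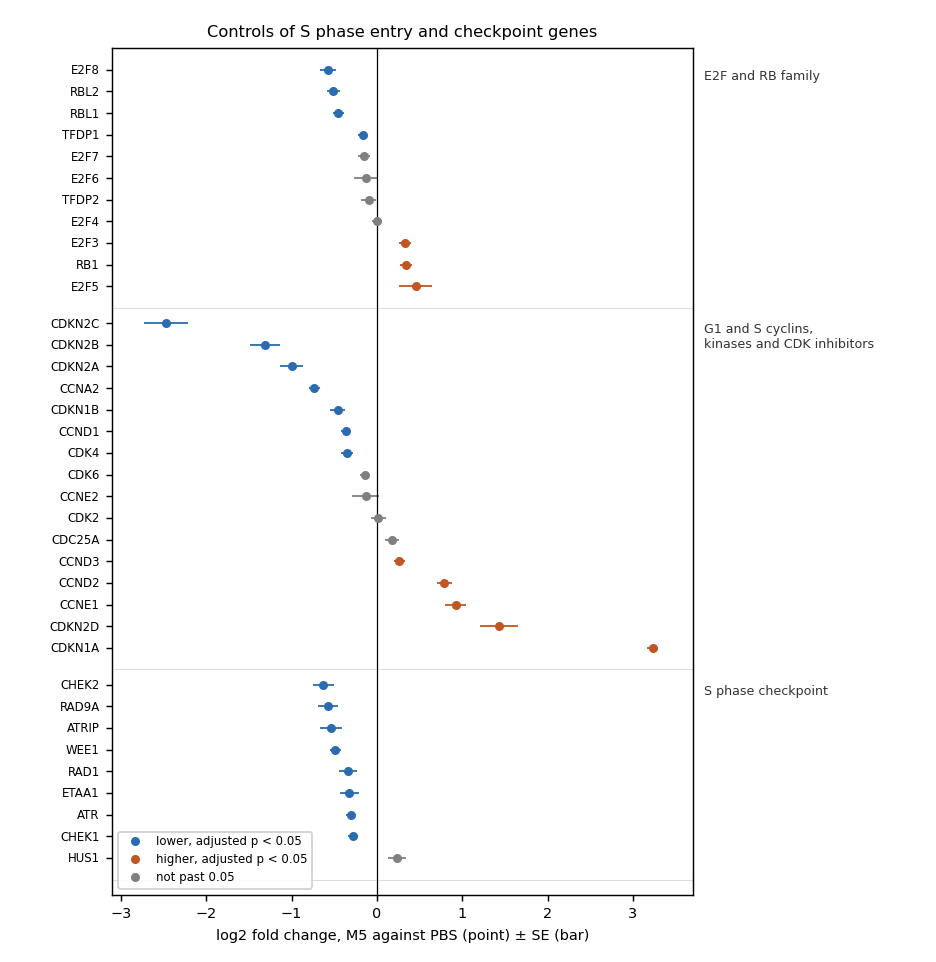
Log2 fold change of M5 against PBS (x axis, point) with its SE (bar) for 36 tested genes of cell cycle control (y axis), in 3 groups. CDKN1A stands at the far right at 3.23 and CDKN2C at the far left at -2.47, while 8 of 9 checkpoint genes lie left of 0.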

How the data were processed

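RNA-seq of 4 HaCaT libraries (2 PBS, 2 M5) was analysed, with groups and replicate numbers from the sample titles. Per the file headers, the deposited tables hold a read count and an FPKM value for each gene. HISAT2, HTSeq 0.13.5 and GRCh38 are named, per the submitters' processing notes. Annotation release, strand setting and handling of multiply aligned reads: not given in the sources used here. FPKM as deposited by the authors follow from the deposited counts, the gene lengths and the library totals.

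Counts were tested with edgeR's quasi-likelihood test (edgeR 4.0.16, R 4.3.3, TMM scaling, two-sided) where FPKM averaged 1 or more, with Benjamini-Hochberg adjustment over all 10809 genes. The script was tested on simulated data. The SE is the log2 fold change divided by the root of F. CPM are scaled by TMM. Positions and exon overlaps come from GENCODE 29 on GRCh38, whose release may not be that of the files, and promoter windows from RefSeq (GRCh38.p14).

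The members and gene lists were chosen with earlier results of these data known. For each role, the members with the largest and smallest change and those not called were given by library. Of each other list, the largest called fall and rise were named, with CDKN1A, CCNE1, CCNE2 and the E2F family, while CDKN2A, CDKN2B, DNMT1, DUT, CCNA2 and HUS1 were added after their values were seen. Some genes of these lists are not reported here.

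Alternatives were RLE factors, library totals, TPM scaling, DESeq2 1.42.0, limma 3.58.1 on log2(FPKM + 1) and log2(FPKM + 0.1), no filter, an FPKM mean of 5 or more, a robust fit, a replicate block, an adjusted p of 0.01 and each library left out. A block with crossed replicate numbers was added after seeing the data.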

Additional observations from a re-analysis of the deposited data

How the results depend on the processing

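Members called lower numbered 35 to 41 over the 15 other fits (35 at an adjusted p under 0.01), and 35 to 38 with 1 library left out, and 0 were called higher in each. Of the 36 called, 35 kept the call in every other fit that tested them, POLA2 being the exception, and 4 (POLA2 among them) were not tested at a mean FPKM of at least 5. RRM2 went from 0.04 to -0.14 with TPM scaling. The other replication genes called lower, 38 of 45 in the report, were 31 with DESeq2 and 31 at an adjusted p under 0.01. They were 31 of 49 with no filter, and 40 with TPM scaling or library totals. The other replication genes called higher, 3 in the report, were 0 with TPM scaling, 1 with library totals and 0 with limma at either pseudocount. Genes of cell cycle control called higher, 8 in the report, were 4 with TPM scaling and 5 with limma at either pseudocount, and those called lower were 12 of 22 tested at a mean FPKM of at least 5, against 19. E2F4 went from 0.00 to -0.18 with TPM scaling, to -0.15 with library totals and to -0.15 with limma at either pseudocount. SHMT1 ranged from -3.84 to 2.19 with 1 library left out. With the replicate number as a block, 37 members were lower, SLBP being added. Replicate differences of the same number in PBS and M5 did not correlate (r = -0.01 over 10809 genes). This cannot exclude a pairing, since noise between libraries could hide a shared effect, and the labels do not state one. Crossing the numbers also gave 37 members lower. For reversals other than from leaving out a library, the cause was not tested. With 2 libraries a group, the precision of each uncalled member is that of its interval in the report.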
